A study of Ovis aries with 9 samples.

Results

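The dopamine and serotonin pathway genes described here were 9 genes, chosen by their RefSeq sheep symbols. They were TH and DDC for synthesis, SLC18A2 for vesicular transport, MAOA and MAOB for breakdown, and DRD1, DRD2, HTR1A and HTR2C for reception. They were 9 of the 21284 protein-coding genes with a RefSeq transcript in the table, and each had at least 1 such transcript. The samples were hypothalamus tissue of 9 Dolang ewes kept at a single station, 3 at prepuberty (120 to 121 days of age), 3 at puberty (130 to 131 days) and 3 at postpuberty (150 to 151 days), with 1 RNA-seq library per ewe. The stage of a ewe was judged from its oestrous behaviour, and the labels name no treatment that differed between stages. The libraries are named by stage and replicate number, from Prepuberty 1 to Postpuberty 3. The level of a gene is its FPKM (fragments per kilobase of transcript, scaled to the mapped fragments of the library), summed over its RefSeq coding transcripts, and is therefore per length. The question was whether the level of any of these genes differed between stages by more than the spread between ewes.

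Dopamine is made from tyrosine by tyrosine hydroxylase (TH) and aromatic amino acid decarboxylase (DDC), and serotonin from tryptophan by a tryptophan hydroxylase and the same DDC. Both monoamines are loaded into synaptic vesicles by the vesicular transporter SLC18A2, act on G protein-coupled receptors and are oxidised by the monoamine oxidases MAOA and MAOB. Hypothalamic dopamine is known for holding back prolactin secretion and, in the ewe, for restraining the release of gonadotropin-releasing hormone outside the breeding season.

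The library Puberty 2 stood apart from the other 8. Its FPKM values summed to 599726, against 359588 to 398109 in the others, and 42441 transcripts were above 0 in it, against 67824 to 71787. Its median Spearman correlation with the other libraries was 0.714, against 0.898 to 0.927. Stage differences are therefore given with and without it. Markers of hypothalamic neurons were unevenly present, since 5 of 12 (PMCH, GHRH, SIM1, NKX2-1 and AGRP) had a mean FPKM below 0.5, GHRH was listed at 0 in 8 of the 9 libraries and NKX2-1 in 5. POMC was between 2.09 and 22.5 FPKM. In this bulk tissue, fewer cells of a type and less RNA per cell cannot be told apart.

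The monoamine oxidases were the most abundant members. The mean level over the 9 libraries was 16.2 FPKM for MAOB, 15.7 for MAOA, 3.64 for TH, 3.28 for DDC, 1.73 for DRD2, 1.68 for HTR1A, 1.20 for SLC18A2, 1.03 for DRD1 and 0.00988 for HTR2C. Among the 19113 protein-coding genes detected, 85.4% had a lower mean than MAOB and 36.1% a lower mean than DRD1. Between neighbours in this order, MAOA was higher than TH in 8 of 9 libraries and DRD1 was higher than HTR2C in 9 of 9. The other neighbours changed places from library to library, since the gene with the higher mean was the higher one in only 3 to 5 of 9 libraries. TH, for example, had a higher mean than DDC but was higher in only 3 libraries. The mean of TH was raised by Postpuberty 1 (20.2 FPKM). Its median over the 9 libraries was 1.52 FPKM, below that of DDC (3.65 FPKM).

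**Figure D1:**
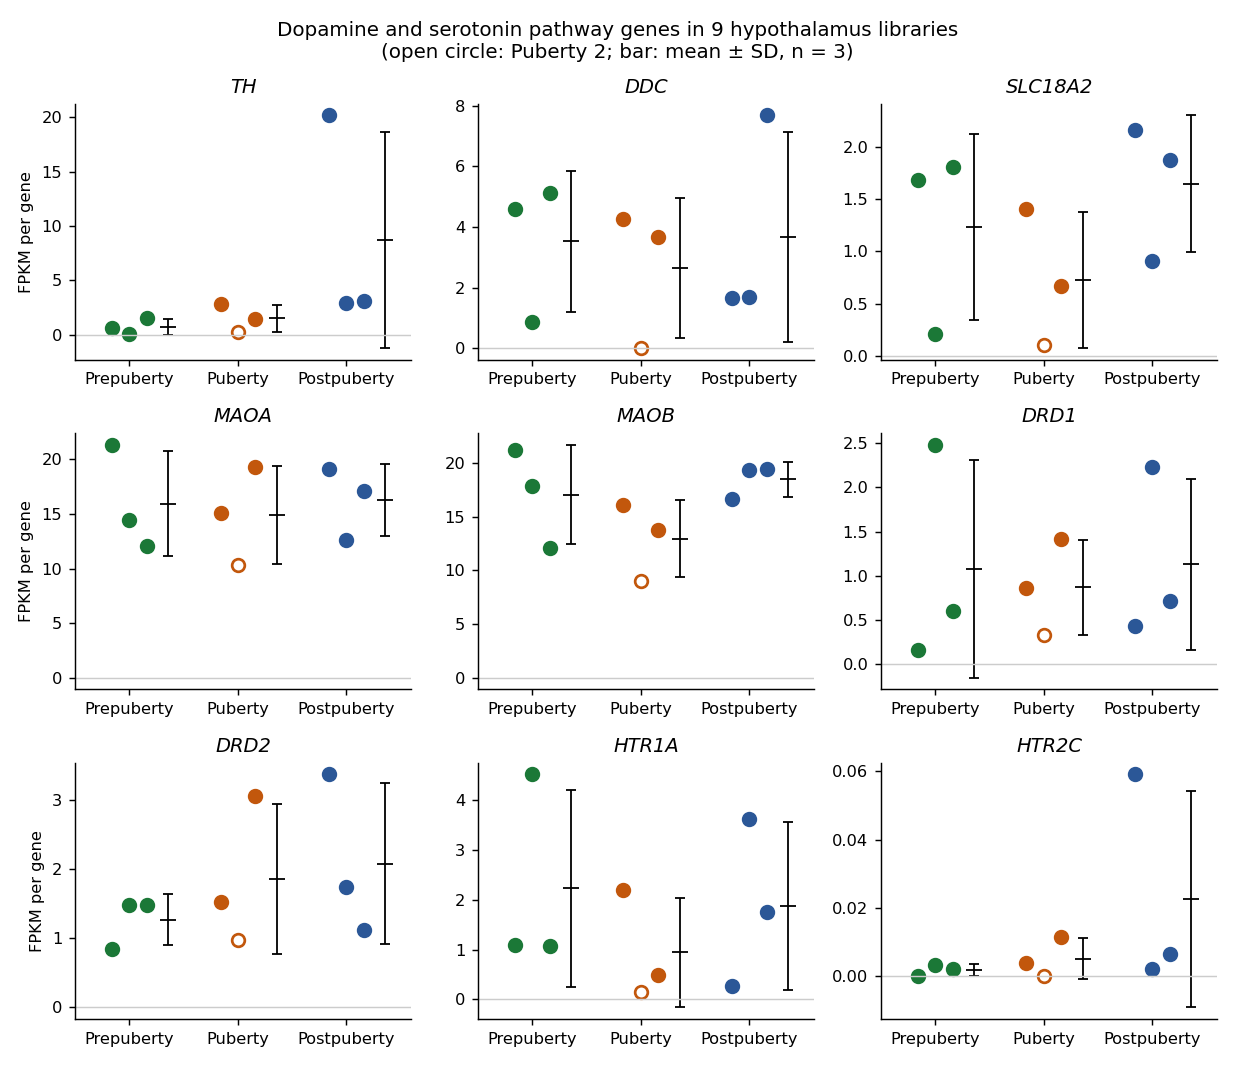
Level of each of the 9 genes in FPKM (vertical axis, from a separate scale per gene) in every library, grouped by stage, with the mean ± SD of 3 ewes beside the points and Puberty 2 as an open circle. TH reached 20.2 FPKM in Postpuberty 1 and stayed at or below 3.05 in the other libraries, while MAOA and MAOB varied little.

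TH, the rate-limiting enzyme of dopamine synthesis, had its highest levels at postpuberty. Its gene lies on chromosome 21 at 45764210-45770799 of ARS-UI_Ramb_v3.0. TH was at 0.619, 0.0545 and 1.52 FPKM in Prepuberty 1, 2 and 3. It was at 2.79, 0.255 and 1.44 FPKM in Puberty 1, 2 and 3. It was at 20.2, 2.87 and 3.05 FPKM in Postpuberty 1, 2 and 3. All postpuberty libraries were thus above all libraries of the earlier stages, but Postpuberty 2 lay just above Puberty 1, and Postpuberty 1 was far above all others. The stage means were 0.732 ± 0.740, 1.49 ± 1.27 and 8.70 ± 9.94 FPKM (SD, n = 3 each). The SD exceeded the mean at prepuberty and at postpuberty. When the libraries were scaled to the same sum of FPKM, Puberty 1 (3.11) passed Postpuberty 2 (3.08) and Postpuberty 3 (3.05), so puberty and postpuberty then overlapped. Scaling to the same upper quartile also made them overlap, whereas postpuberty remained above prepuberty in every library under both scalings.

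DDC, the decarboxylase shared by both pathways, showed no order by stage. The gene lies on chromosome 4 at 6131062-6225649 and had 6 coding transcripts in the table, of which XM_004007692.6 held 93.4% of its FPKM over the 8 libraries without Puberty 2. DDC was at 4.59, 0.851 and 5.13 FPKM in Prepuberty 1, 2 and 3. It was at 4.27, 0.00373 and 3.65 FPKM in Puberty 1, 2 and 3. It was at 1.67, 1.67 and 7.68 FPKM in Postpuberty 1, 2 and 3. The stages overlapped throughout, with a low library at prepuberty, another at puberty (Puberty 2, where the main transcript was listed at 0) and a pair at postpuberty. The means were 3.53 ± 2.33, 2.64 ± 2.31 and 3.67 ± 3.47 FPKM (SD, n = 3 each), and the puberty mean without Puberty 2 was 3.96 FPKM. The ratio of TH to DDC was below 1 in 6 of 9 libraries and above 1 in Puberty 2 (68.2, where DDC was nearly 0), Postpuberty 1 (12.1) and Postpuberty 2 (1.72).

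SLC18A2, the vesicular monoamine transporter on chromosome 22 at 37101447-37142745, was low in all stages. It was at 1.69, 0.210 and 1.81 FPKM in Prepuberty 1, 2 and 3. It was at 1.41, 0.111 and 0.669 FPKM in Puberty 1, 2 and 3. It was at 2.16, 0.912 and 1.87 FPKM in Postpuberty 1, 2 and 3. The ranges of the 3 stages overlapped, and the lowest values belonged to Puberty 2 and Prepuberty 2, the libraries in which DDC was also lowest. The highest value of SLC18A2 was in Postpuberty 1, where TH was also highest but DDC was only at 1.67 FPKM.

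MAOA and MAOB, enzymes of the outer mitochondrial membrane that oxidise dopamine and serotonin, varied least. They lie close together on chromosome X, MAOA at 42774720-42858036 and MAOB at 42875586-42996656. MAOA was at 21.3, 14.5 and 12.1 FPKM at prepuberty, at 15.1, 10.3 and 19.3 at puberty and at 19.1, 12.6 and 17.1 at postpuberty (libraries 1, 2 and 3 in each). MAOB was at 21.3, 17.8 and 12.1 FPKM at prepuberty, at 16.1, 9.01 and 13.8 at puberty and at 16.6, 19.4 and 19.5 at postpuberty. MAOA overlapped between all stages. MAOB was higher in each postpuberty library than in each puberty library, by a narrow margin between Puberty 1 and Postpuberty 1, and this separation was lost under either scaling. The ratio of MAOA to MAOB stayed between 0.652 and 1.40, with MAOA the higher in 4 of 9 libraries.

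DRD1, the stimulatory D1 dopamine receptor on chromosome 7 at 5708639-5712758, differed more within stages than DRD2. It was at 0.163, 2.48 and 0.600 FPKM in Prepuberty 1, 2 and 3, at 0.859, 0.334 and 1.42 in Puberty 1, 2 and 3, and at 0.438, 2.24 and 0.721 in Postpuberty 1, 2 and 3. Its highest levels were in Prepuberty 2 and Postpuberty 2, and all stages overlapped. DRD2, the inhibitory D2 receptor that also serves as an autoreceptor of dopamine neurons, lies on chromosome 15 at 23673661-23744014. It was at 0.849, 1.48 and 1.48 FPKM at prepuberty, at 1.53, 0.970 and 3.06 at puberty and at 3.37, 1.74 and 1.11 at postpuberty. Its stages overlapped with all 9 libraries, and without Puberty 2 both remaining puberty libraries were above every prepuberty library, Puberty 1 only narrowly. After scaling to the same upper quartile, Puberty 1 (1.56) was below Prepuberty 3 (1.57). The ratio of DRD2 to DRD1 ran from 0.596 to 7.68 and was above 1 in 7 of 9 libraries, the exceptions being Prepuberty 2 and Postpuberty 2.

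HTR1A, the inhibitory serotonin receptor that serves as the autoreceptor of serotonin neurons, lies on chromosome 16 at 15723486-15727932. It was at 1.10, 4.51 and 1.07 FPKM in Prepuberty 1, 2 and 3, at 2.20, 0.146 and 0.485 in Puberty 1, 2 and 3, and at 0.261, 3.62 and 1.76 in Postpuberty 1, 2 and 3. As for DRD1, the highest libraries were Prepuberty 2 and Postpuberty 2. HTR2C, the serotonin receptor known from hypothalamic control of feeding, lies on chromosome X at 119940210-120088492. It did not exceed 0.0590 FPKM, its level in Postpuberty 1, and was listed at 0 in Prepuberty 1 and Puberty 2. It was the only member that did not reach a mean of 0.5 FPKM at any stage and was therefore not tested.

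The stages were compared by limma on log2(FPKM + 1) over the 14238 protein-coding genes that reached a mean of 0.5 FPKM at 1 stage or more. A call required an adjusted p-value below 0.05 together with a log2 fold change of 1 or more in size. On this scale the change of low genes is understated. The 3 comparisons share their stage groups and are not independent of each other. None of the 8 members tested was called in any comparison, and neither was any other gene (0.0% of genes called in each). The smallest adjusted p-value of a member by limma was 0.780. At an unadjusted p-value below 0.05, the members counted 0 of 8 between prepuberty and puberty, 1 of 8 between puberty and postpuberty and 1 of 8 between prepuberty and postpuberty. The single member was TH in both. Among all genes, 259 (1.82%), 305 (2.14%) and 116 (0.815%) passed this weaker limit in the same order.

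With all 9 libraries, TH had the largest differences among the members in the comparisons with postpuberty. Its log2 fold change from prepuberty to postpuberty was 2.09 ± 0.69 (SE), with a 95% confidence interval of 0.53 to 3.65, an unadjusted p of 0.0144 and an adjusted p of 1.0 by limma. From puberty to postpuberty it was 1.61 ± 0.69 (interval 0.05 to 3.18), with an unadjusted p of 0.0444 and an adjusted p of 0.780 by limma. From prepuberty to puberty it was 0.48 ± 0.69 (interval -1.09 to 2.04). Without Puberty 2 the difference between puberty and postpuberty was 1.19 (interval -0.58 to 2.96). Without Postpuberty 1 it was 0.81 (interval -0.38 to 1.998), and that between prepuberty and postpuberty was 1.28 (interval 0.09 to 2.47). HTR1A then had the larger difference between puberty and postpuberty, at 1.02 (interval -0.33 to 2.37). Without both Puberty 2 and Postpuberty 1 the TH difference between puberty and postpuberty was 0.38 (interval -0.66 to 1.43), and that between prepuberty and puberty was 0.90. Between puberty and postpuberty, HTR1A (0.71) and DRD2 (-0.41) then differed by more than TH. The size of the TH difference therefore rested in large part on Postpuberty 1, while its direction did not.

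For the other members, the interval of every difference included 0. From puberty to postpuberty, the log2 fold change was 0.65 ± 0.41 (SE) for SLC18A2, 0.51 ± 0.29 for MAOB and 0.52 ± 0.59 for HTR1A. Without Puberty 2 the same values were 0.37, 0.29 and 0.21. From prepuberty to puberty it was -0.71 ± 0.59 for HTR1A, -0.46 ± 0.76 for DDC and -0.37 ± 0.29 for MAOB. Without Puberty 2 these were -0.40, 0.31 and -0.15, so that DDC changed sign and HTR1A and MAOB moved by more than 1.5 times. The puberty means of all 3 genes thus depended on this library. The narrowest intervals belonged to the oxidases: from prepuberty to postpuberty, the 95% interval was -0.67 to 0.76 for MAOA and -0.52 to 0.80 for MAOB, so that a doubling or a halving on the FPKM + 1 scale lay outside it. Without Postpuberty 1 the interval of MAOB was -0.59 to 1.02, so that a doubling lay just inside it. In the comparisons with puberty the interval of MAOB ran from -1.03 to 0.29 against prepuberty and from -0.15 to 1.17 against postpuberty, so that a halving or a doubling lay inside it. For DDC the interval from prepuberty to postpuberty was -1.73 to 1.71. The fold changes of DRD1 lay between -0.04 and 0.14 over the 3 comparisons, with an SE of 0.46, and those of DRD2 between 0.11 and 0.38, with an SE of 0.36. Without Puberty 2 the differences of DRD1 were 0.18 from prepuberty to puberty and -0.083 from puberty to postpuberty, and those of DRD2 were 0.51 and -0.13. MAOA was at -0.097 and 0.14 with all libraries and at 0.13 and -0.083 without it.

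**Figure D2:**
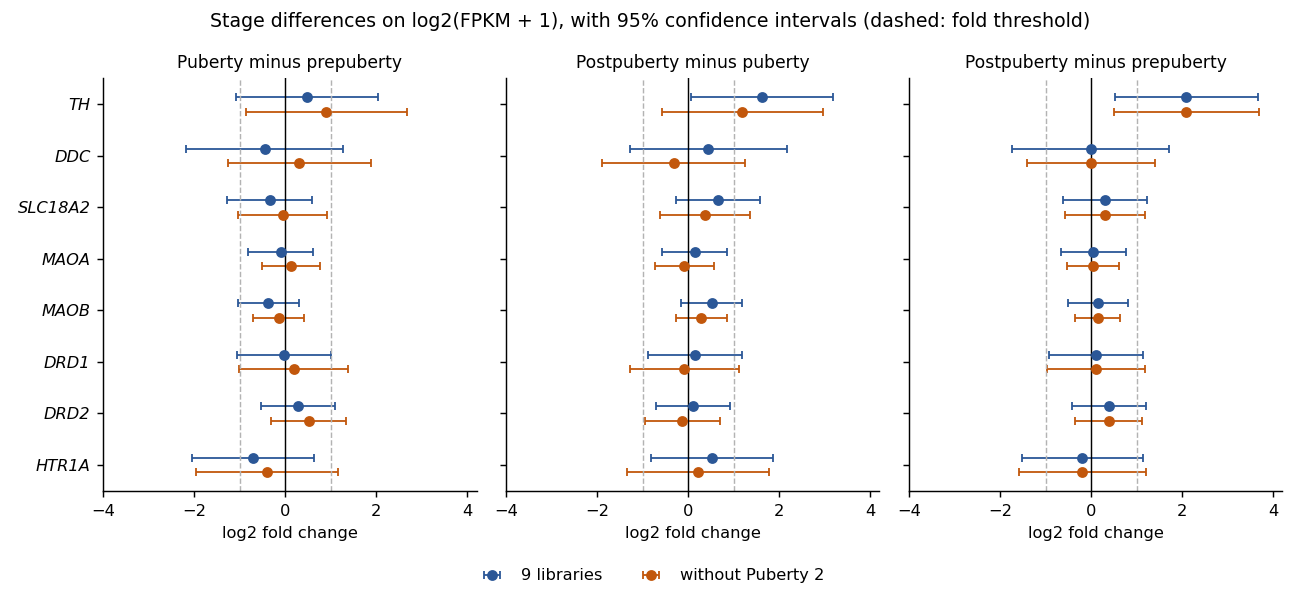
Log2 fold change of each of the 8 members tested (horizontal axis, log2(FPKM + 1)) with its 95% confidence interval in the 3 stage comparisons, with all 9 libraries in blue and without Puberty 2 in orange, and a dashed line at a change of 1. Only the intervals of TH between prepuberty and postpuberty (0.53 to 3.65) and between puberty and postpuberty (0.05 to 3.18) lay above 0, and the latter reached below 0 without Puberty 2.

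Complete separation of the libraries of 2 stages was counted as a further description, since with 3 ewes per stage the smallest two-sided p of an exact permutation test is 0.1. Between puberty and postpuberty, 2 of 8 members (TH and MAOB) were higher in every postpuberty library, against 5.25% of all genes, and 0 of 8 were lower, against 2.07%. Between prepuberty and postpuberty, 1 of 8 (TH) was higher in every postpuberty library, against 3.17%, and 0 were lower, against 1.4%. Between prepuberty and puberty, 0 of 8 were separated in either direction, against 2.32% of genes higher and 2.84% lower in puberty. Without Puberty 2 the shares of all genes grew, to 7.07% higher in puberty than in prepuberty and 7.93% higher in postpuberty than in puberty, and the members so separated were DRD2 in the former and TH and MAOB in the latter. HTR2C, untested and near 0, was also higher in both remaining puberty libraries than at prepuberty.

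The members moved with the library Puberty 2 as many genes did. It held the lowest level of 5 of the 8 members tested, against 52.3% of all genes. The median log2 fold change of the members was -0.22 from prepuberty to puberty and 0.48 from puberty to postpuberty, against -0.14 and 0.19 for all genes. Without Puberty 2 the same medians were 0.16 and 0.06, against 0.02 and 0.03. From prepuberty to postpuberty the members' median was 0.12, against 0.05. Scaling to the same sum of FPKM shifted the median of all genes to -0.28 and 0.30 in the comparisons with puberty, and quantile normalization brought it to 0.01 and -0.01.

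The members differed in how far they varied within stages. The SD within stages, on log2(FPKM + 1), was 1.11 for DDC, 0.999 for TH, 0.84 for HTR1A, 0.64 for DRD1, 0.56 for SLC18A2 and 0.456 for DRD2, against a median of 0.451 over all genes tested. It was 0.38 for MAOA and 0.33 for MAOB. Of all genes tested, 94.5% had a smaller SD than DDC and 92.2% a smaller SD than TH. Among genes of like mean level the shares were 95.9% of 1775 genes and 93.2% of 1745 genes, so the variability of both stood high for their level. For TH this rested in part on Postpuberty 1. Without that library the SE of its log2 fold change from prepuberty to puberty fell from 0.69 to 0.46. For DDC the variability rested in part on Puberty 2, where DDC was at 0.00373 FPKM. Without Puberty 2 the SE of the log2 fold change of DDC from prepuberty to postpuberty fell from 0.76 to 0.60. The like-level share was 90.2% for HTR1A, 83.1% for DRD1 and 70.5% for SLC18A2. It was 49.5% for DRD2, near the middle, 40.0% for MAOA and 33.0% for MAOB.

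The other genes of the pathway were taken from 6 lists of 53 genes in all, of which 44 were not members and 29 of those were tested. None of the 29 was called by limma in any comparison and none reached an unadjusted p-value below 0.05, and their median log2 fold changes were -0.025 from prepuberty to puberty and -0.017 from puberty to postpuberty, and 0.053 and -0.075 without Puberty 2. Among genes of synthesis and cofactor supply, the most abundant was PCBD1, which regenerates the tetrahydrobiopterin cofactor of the hydroxylases, with a mean of 109.5 FPKM. It also had the smallest p-value of the genes in its list that are not members, with a log2 fold change from puberty to postpuberty of -0.51 ± 0.34 (SE) and 220.7 FPKM in Puberty 2 against 75.9 to 110.8 elsewhere. Without Puberty 2 this difference was -0.12 ± 0.18. Among transporters, SLC22A3, a low-affinity carrier of monoamines, was highest on average, with 1.49 to 4.98 FPKM over the 9 libraries. Among breakdown genes, the aldehyde dehydrogenase ALDH2 was highest, with 75.8 to 103.4 FPKM over the 9 libraries. AKR1B1, an aldose reductase, was higher by 0.37 ± 0.23 at puberty than at prepuberty, with an unadjusted p of 0.140 and an adjusted p of 0.838 by limma, and by 0.41 ± 0.19 without Puberty 2. Its puberty libraries, at 28.2, 25.4 and 27.2 FPKM, were all above those of prepuberty, at 19.4, 18.9 and 23.8, and above those of postpuberty, at 17.2, 20.1 and 25.35. Of the 29 genes, 2 (AKR1B1 and GATA2) were separated between prepuberty and puberty, and 2 (AKR1B1, lower in postpuberty, and PTS, a cofactor synthase that was higher) between puberty and postpuberty. These counts are read against 2.32% of all genes higher in puberty than in prepuberty, 5.25% higher and 2.07% lower in postpuberty than in puberty, so nothing particular to the list is read from them. Without Puberty 2, AKR1B1 and GATA2 were still separated between prepuberty and puberty, and 4 genes were separated between puberty and postpuberty. These were PTS and SLC6A3, higher in postpuberty, and AKR1B1 and the monoamine transporter SLC29A4, lower in it. Of all genes, 7.07% were then higher in puberty than in prepuberty. Between puberty and postpuberty, 7.93% were higher and 6.08% lower in postpuberty, so nothing particular to the list is read from these counts either.

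Among the further dopamine receptors, DRD4 had the highest mean at 3.69 FPKM, with 10.6 FPKM in Puberty 2 and 1.76 to 3.75 in the other 8 libraries, and its mean of 2.83 FPKM without Puberty 2 was still the highest. DRD3 did not exceed 0.0347 FPKM. Among the serotonin receptors, HTR6 was the most abundant at a mean of 2.70 FPKM. HTR1B, an inhibitory receptor like HTR1A, had the smallest p-value of its list apart from members, with a log2 fold change of 0.79 ± 0.42 (SE) from puberty to postpuberty and an adjusted p of 0.780 by limma. Without Puberty 2, where HTR1B was at 0.0573 FPKM, this difference was 0.47 ± 0.41. Only 5 of the 14 serotonin receptor genes, HTR1A included, reached the level needed for testing. Among the transcription factors of dopamine or serotonin neurons, GATA2 was highest on average at 2.04 FPKM, although without Puberty 2 its mean of 1.81 FPKM was below that of EN2 at 2.01. GATA2 also had the smallest p-value, with a log2 fold change of -0.76 ± 0.38 from puberty to postpuberty and of -0.60 ± 0.40 without Puberty 2.

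DDC was low in the libraries in which 3 genes of serotonin neurons were low. These genes, named after their values had been seen, were TPH2, the neuronal tryptophan hydroxylase, SLC6A4, the serotonin transporter, and FEV, a transcription factor of serotonin neurons, which in mammals lie mostly in the raphe nuclei of the brainstem. TPH2 was at 9.36, 0.0634 and 3.86 FPKM in Prepuberty 1, 2 and 3, at 4.16, 0.0293 and 1.06 in Puberty 1, 2 and 3, and at 0.0463, 0.0589 and 6.15 in Postpuberty 1, 2 and 3. SLC6A4 was at 5.47, 0.0187 and 3.11 FPKM at prepuberty, at 2.20, 0 and 0.798 at puberty and at 0.109, 0.0533 and 4.91 at postpuberty. The 4 libraries lowest in TPH2 and in SLC6A4 (Prepuberty 2, Puberty 2, Postpuberty 1 and Postpuberty 2) were also the 4 lowest in DDC, where it did not exceed 1.67 FPKM against 3.65 to 7.68 in the other 5. Each stage held at least 1 of these 4. As TPH2 and SLC6A4 split the libraries into 2 sets, no correlation is given for them. FEV was highest in Prepuberty 1 (1.66 FPKM) and Postpuberty 3 (1.41) and was at 0.200 or below in the same 4 libraries. GATA2 and GATA3, transcription factors of the same list that other neurons also use, did not share this pattern. GATA3 was highest in Prepuberty 2 (2.004 FPKM) and GATA2 in Puberty 2 (3.82 FPKM), with an r with DDC of -0.029 and -0.198. LMX1B had an r of 0.759 with DDC, and 0.284 without the 2 libraries farthest from its median. DDC was also correlated with GCH1, the first enzyme of cofactor synthesis (Pearson's r = 0.826, Spearman's rho = 0.738, r = 0.756 without the 2 libraries farthest from the median of GCH1). DBH, another gene of the synthesis list, had an r of 0.764 with DDC (rho = 0.69, 0.73 left out in the same way). The pattern was thus not confined to TPH2, SLC6A4 and FEV. EN1 (r = -0.470), EN2 (-0.599) and HTR1A (-0.351) had negative values with DDC, which became 0.354, -0.084 and 0.759 in the same way. These and the following correlations are descriptions over the 8 libraries without Puberty 2, which share their stage and tissue composition between genes.

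TH and the dopamine transporter SLC6A3 had their highest levels in the same library. SLC6A3, which returns dopamine to the neurons that release it, was at 0.0835, 0 and 1.15 FPKM in Prepuberty 1, 2 and 3. It was at 0.152, 0.542 and 0.192 FPKM at puberty and at 12.6, 1.92 and 0.259 FPKM at postpuberty. Postpuberty 1 thus held the highest level of both genes. Postpuberty 3, with 3.05 FPKM of TH, was at the median of the 9 libraries for SLC6A3 (0.259 FPKM). The correlation of TH with SLC6A3 was r = 0.879 (rho = 0.833) and 0.336 without the 2 libraries farthest from the median of SLC6A3. That of TH with NR4A2, a transcription factor of dopamine neurons, was r = 0.760 (rho = 0.333) and -0.665 in the same way, so that both rest on the libraries left out. NR4A2 was named outside the rule for naming genes of the lists. For the other tested factors of its list, r with TH ran from -0.411 (GATA2) to 0.418 (EN2). It was 0.113 for LMX1A, which was highest in Puberty 3 (1.54 FPKM). The log2 fold change of SLC6A3 from puberty to postpuberty was 1.52 ± 0.73 (SE), with an unadjusted p of 0.0669 and an adjusted p of 0.780 by limma. It was 0.58 ± 0.44 without Postpuberty 1 and 1.65 ± 0.89 without Puberty 2.

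**Figure D3:**
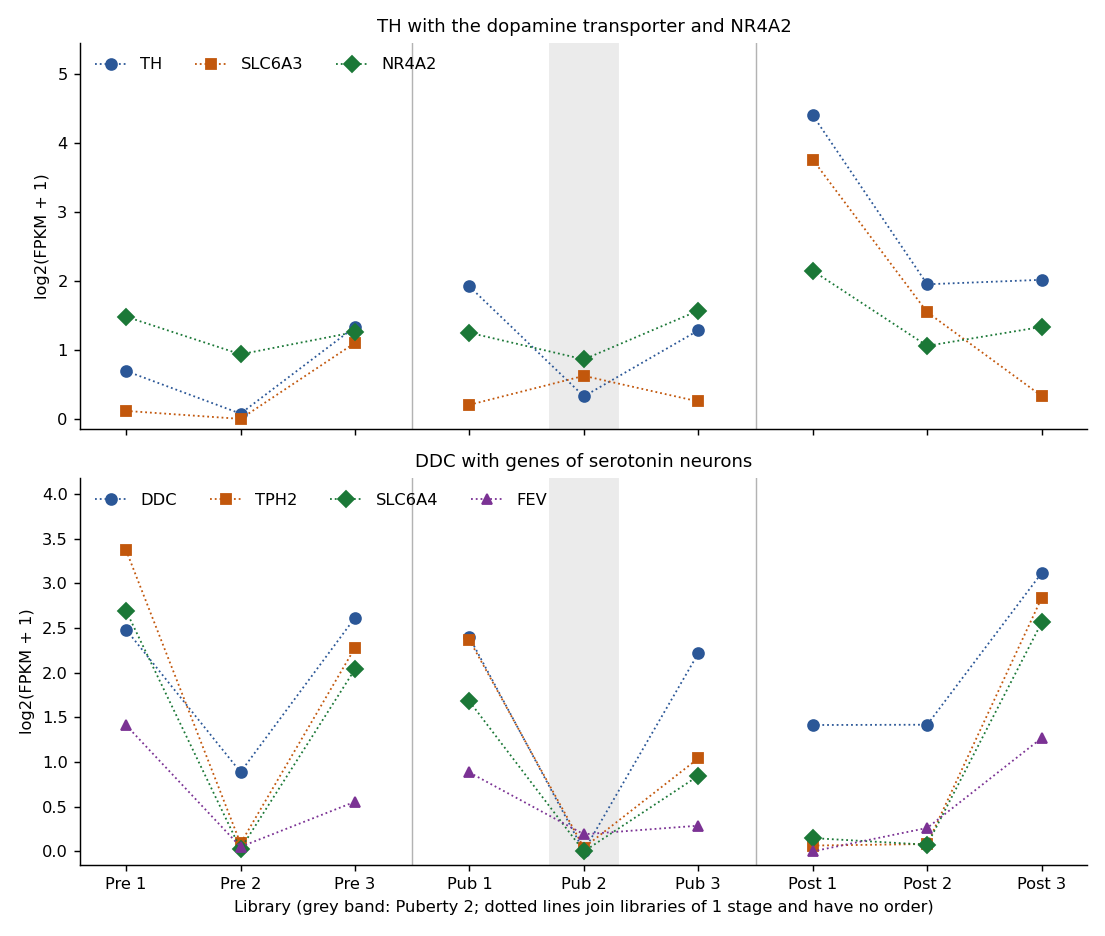
Level as log2(FPKM + 1) (vertical axis) in each library (horizontal axis, grouped by stage, Puberty 2 shaded) of TH, SLC6A3 and NR4A2 in the upper panel and of DDC, TPH2, SLC6A4 and FEV in the lower panel. TH and SLC6A3 were highest in Postpuberty 1 (20.2 and 12.6 FPKM), and DDC was lowest in the 4 libraries in which TPH2 did not exceed 0.0634 FPKM.

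Some other marker genes were also high in Postpuberty 1. The summed level of the 6 matched anterior pituitary markers was 203.5 FPKM there, of which prolactin (PRL) held 199.5, and it was 13.8 to 76.9 in the other postpuberty libraries, 0.743 to 81.8 at puberty and 0.125 to 28.7 at prepuberty. TSHB was listed at 0 in all libraries, and FSHB and POU1F1 had a mean below 0.5 FPKM. LHB did not share the peak, since it was at 0.802 FPKM in Postpuberty 1 and highest in Puberty 2 (10.9 FPKM). EN2, a transcription factor of the midbrain and hindbrain border, was at 9.18 FPKM in Postpuberty 1 and at 3.30 or below elsewhere. The summed level of 10 neuron markers was lowest in this library (707.5 FPKM). The part of tissue composition in the levels of TH and DDC was not tested.

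DRD1 and HTR1A were high in the libraries in which neuron markers were high. All 10 neuron markers were above 0 in every library, and their summed level was 955.2 to 2425 FPKM at prepuberty, 729.1 to 2087 at puberty and 707.5 to 2532 at postpuberty. Against the mean log2 level of these markers, the correlation was r = 0.777 (rho = 0.857) for HTR1A and r = 0.726 (rho = 0.738) for DRD1. Without the 2 libraries farthest from the markers' median it was 0.919 for HTR1A and 0.453 for DRD1. DRD2 did not follow these markers (r = -0.312, rho = -0.381). Of the 12 marker lists, DRD2 had its highest r with the anterior pituitary list (r = 0.646, rho = 0.738, r = 0.965 without the 2 libraries farthest from that list's median). DRD2 was highest in Postpuberty 1 and Puberty 3, the libraries with the highest pituitary sums (203.5 and 81.8 FPKM, mostly PRL). Postpuberty 2, with a sum of 76.9 FPKM, held 1.74 FPKM of DRD2. LHB of the same list was highest in Puberty 2, where DRD2 was at 0.970 FPKM. The single gene EN2 had a higher r with DRD2 than this list (0.791, rho = 0.429, r = 0.86 without the 2 farthest libraries). The part of pituitary tissue in the levels of DRD2 was not tested. DRD1 was lowest in Prepuberty 1 and HTR1A in Puberty 2, which together with Postpuberty 1 were the 3 libraries with the lowest neuron markers. How far neuron content accounts for the levels of both receptors was not tested.

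**Figure D4:**
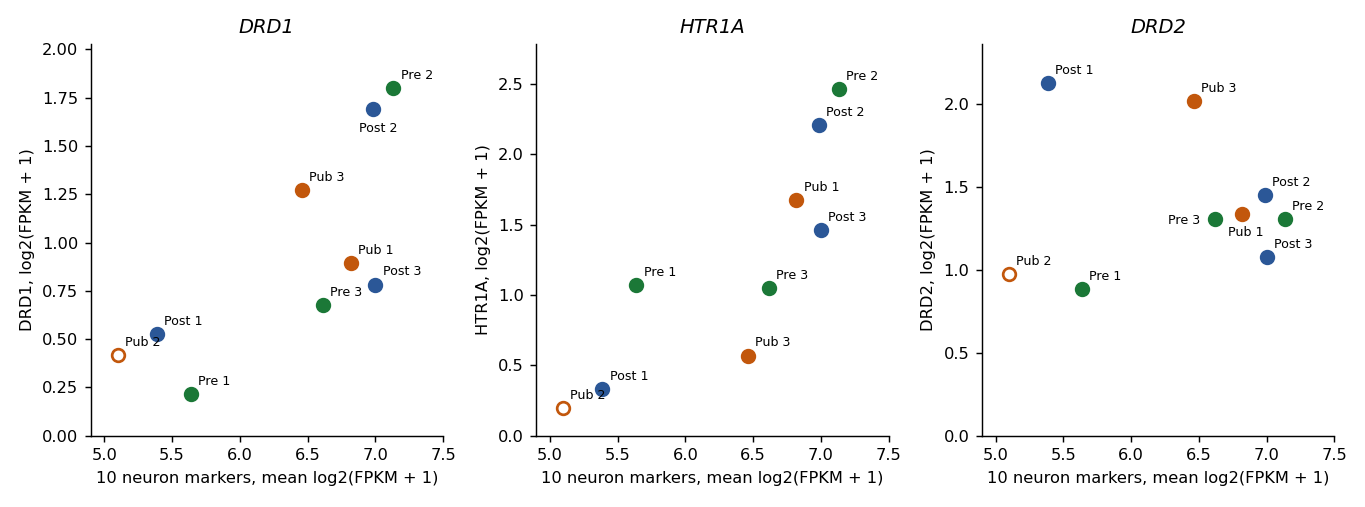
Level of DRD1, HTR1A and DRD2 as log2(FPKM + 1) (vertical axis) against the mean log2(FPKM + 1) of 10 neuron markers (horizontal axis) in the 9 libraries, coloured by stage with Puberty 2 open. DRD1 and HTR1A were higher where the markers were higher over the 8 libraries without Puberty 2 (r = 0.726 and 0.777), and DRD2 was not (r = -0.312).

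DRD1 was also high with the D1-like receptor DRD5 (r = 0.917, rho = 0.976, r = 0.982 without the 2 farthest libraries) with the striatal medium spiny neuron list (r = 0.870, rho = 0.929), the markers of a cell type known for this receptor, and with the thalamic neuron list (r = 0.832), and low where the oligodendrocyte (r = -0.871) and endothelial (r = -0.905) lists were high. The striatal list summed to 19.2 to 37.2 FPKM at prepuberty, 35.9 to 58.9 at puberty and 25.9 to 35.3 at postpuberty. The thalamic list summed to 45.9 to 109.2 FPKM at prepuberty, 75.4 to 111.0 at puberty and 14.2 to 113.3 at postpuberty, and the oligodendrocyte list to 6204 to 14350, 9341 to 11470 and 6352 to 14150 FPKM. HTR1A showed the same signs, with r = 0.849 for the thalamic (0.727 without the 2 farthest libraries) and -0.842 for the oligodendrocyte list (-0.573). SLC18A2 had the opposite signs, with r = 0.827 for the oligodendrocyte (0.518) and -0.785 for the thalamic list (-0.935). Its r with DRD1 was -0.869 (-0.77). MAOA followed ALDH2, which oxidises the aldehydes that monoamine oxidases form (r = 0.880, rho = 0.881, r = 0.933 without the 2 farthest libraries). The r of MAOA with marker lists was 0.731 for microglia (0.392 without the 2 farthest libraries), 0.674 for ependymal cells (0.05), 0.644 for choroid plexus (0.689) and -0.682 for neurons (-0.267). For MAOB, r lay between -0.336 and 0.175 over the 12 lists. Without the 2 farthest libraries its values ran from -0.468 (anterior pituitary) to 0.851 (neuron, against -0.064 with them).

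**Figure D5:**
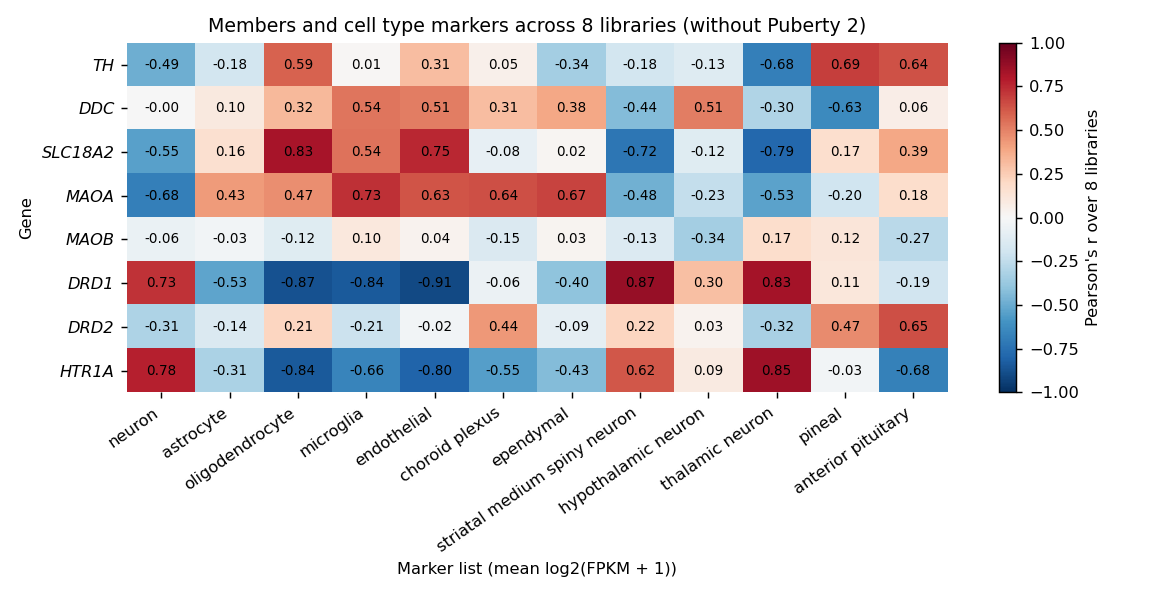
Pearson's r over the 8 libraries without Puberty 2 between the log2(FPKM + 1) of each of the 8 members tested (rows) and the mean log2(FPKM + 1) of each of 12 cell type marker lists (columns), from blue (-1) to red (1). DRD1 and HTR1A share positive values for neuron and thalamic neuron lists and negative values for the oligodendrocyte list, SLC18A2 has the opposite signs, and MAOB stays between -0.336 and 0.175. Without the 2 libraries farthest from the neuron list's median, the r of MAOB with that list was 0.851.

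The genes most like each member across these 8 libraries were named by the 3 highest values of r among 14234 genes. They were PI4KB (0.964), ART3 (0.957) and PER3 (0.956) for TH, whose own pattern was carried by Postpuberty 1, and PER3, a circadian clock gene, was itself only at 0.118 to 0.508 FPKM. They were VPS26A (0.964), HSPB6 (0.963) and CRB3 (0.963) for DDC. They were COL16A1 (0.948), ABHD15 (0.948) and STAP2 (0.945) for SLC18A2. None of these 9 belongs to the monoamine pathway lists. For the oxidases they were ZNF789 (0.987), ANGPT1 (0.978) and SNX5 (0.977) for MAOA and TTI1 (0.948), GIN1 (0.943) and NFX1 (0.940) for MAOB. For the receptors they were LOC101107232 (0.991), AIG1 (0.987) and SPATS2 (0.984) for DRD1 and XYLB (0.988), MCF2L2 (0.946) and NXPH3 (0.939) for DRD2. For HTR1A they were GAP43 (0.976), LOC101109336 (0.976) and PLCXD2 (0.974), of which GAP43 is a growth-associated protein of neurons and one of the 10 neuron markers. With 8 libraries and 14234 genes, values of this size arise for every member, as the lowest of them was 0.939.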

How the data were processed

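Hypothalamus RNA of 9 ewes was sequenced, 1 library per ewe, with 19347227 (Puberty 2) to 23966519 mapped reads. Reads were cleaned by the authors with Trimmomatic and mapped with HISAT2 on the sheep assembly ARS-UI_Ramb_v3.0, and StringTie gave the transcripts and their abundance. The deposited values are FPKM per transcript as the authors computed them, although the table is described as raw counts. A value of 0 may be a failed estimate. RefSeq identifiers were matched to gene symbols and positions with the RefSeq annotation of ARS-UI_Ramb_v3.0 (89672 of 89674 matched), and the FPKM of the coding transcripts of a gene were summed. Assembled transcripts without a RefSeq identifier held 30.3% to 39.6% of the FPKM of a library, and reads of these at a member's locus are not in its sum.

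Stages were taken from the sample labels. The replicate numbers name ewes and do not pair them. Genes with a mean of at least 0.5 FPKM at 1 stage or more (14238 of 21284) were tested with limma 3.58.1 in R 4.3.3 on log2(FPKM + 1), in a single fit of all 9 libraries by stage with a trend of variance with mean level. P-values were adjusted after Benjamini and Hochberg over all 14238 genes. The procedure was tested on simulated data, but no outcome of that test is given, so no conclusion rests on it. Tables and plots were made with Python 3.11.15, pandas 2.3.3, numpy 2.4.6 and matplotlib 3.10.9. FPKM hold no counts, so the precision is the spread between ewes. The members and lists were chosen with earlier results of these data known. All members are named, and in each pathway list the gene with the highest mean and the one with the smallest p-value among those that are not members. Further genes of the lists, such as NR4A2, were named outside this rule. The alternatives were other scalings, pseudocounts, filters, variance models, transcript choices, a replicate block and leaving out libraries.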

Additional observations from a re-analysis of the deposited data

How the results depend on the processing

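Under 22 alternative settings, 0 genes and 0 members were called by limma in any comparison, and the smallest adjusted p of a member was 0.516. The number of genes at an unadjusted p below 0.05 ran from 171 to 728, 197 to 836 and 94 to 269 in the comparisons of puberty with prepuberty, postpuberty with puberty and postpuberty with prepuberty. The highest counts came without Puberty 1 (728 and 750 in the first 2 comparisons) and without Puberty 3 (625 and 836), both of which leave Puberty 2 as 1 of only 2 puberty libraries, and without Puberty 2 the last comparison gave 265. Of the 528 recomputed log2 fold changes of members, 486 kept their sign and 42 did not, and the latter all had an interval that included 0 with 9 libraries. The causes were not tested.

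Leaving out both Puberty 2 and Postpuberty 1, chosen after seeing the data, gave from prepuberty to puberty 0.31 for DDC, 0.13 for MAOA and 0.18 for DRD1. It gave from puberty to postpuberty -0.039 for DDC, -0.20 for MAOA and -0.41 for DRD2, and from prepuberty to postpuberty 0.27 for DDC, -0.072 for MAOA and 0.31 for HTR1A. For TH it gave 0.90, 0.38 and 1.28 in the same order. Quantile normalization gave 0.16 for DRD1 from prepuberty to puberty, and -0.095 for DRD1 and -0.20 for DRD2 from puberty to postpuberty. A pseudocount of 0.1 gave 0.14 for DRD1 from prepuberty to puberty and 0.021 for DDC from prepuberty to postpuberty. Scaling to the same upper quartile gave -0.0013 for MAOA from prepuberty to postpuberty. The separations under the 2 scalings were also computed after seeing the data.

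Leaving out 1 library at a time gave, from prepuberty to puberty, -1.01 to 0.31 for DDC, -0.29 to 0.13 for MAOA, -0.38 to 0.41 for DRD1 and -0.010 to 0.51 for DRD2. From puberty to postpuberty it gave -0.32 to 0.87 for DDC, -0.083 to 0.34 for MAOA, -0.21 to 0.38 for DRD1 and -0.18 to 0.40 for DRD2. From prepuberty to postpuberty it gave -0.58 to 0.30 for DDC, -0.085 to 0.53 for SLC18A2, -0.12 to 0.26 for MAOA, -0.074 to 0.31 for MAOB, -0.24 to 0.55 for DRD1 and -0.63 to 0.31 for HTR1A. Without a change of sign, the ranges from puberty to postpuberty were 0.37 to 0.93 for SLC18A2, 0.29 to 0.68 for MAOB and 0.084 to 1.02 for HTR1A, and from prepuberty to puberty -0.74 to -0.060 for SLC18A2, -0.59 to -0.15 for MAOB and -1.14 to -0.24 for HTR1A. For DRD2 from prepuberty to postpuberty the range was 0.098 to 0.62. For TH the values were 0.10 to 0.90, 0.81 to 2.03 and 1.28 to 2.51 in the same order of comparisons.

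The replicate block called 0 genes in each comparison and gave 281, 327 and 103 genes at an unadjusted p below 0.05. Same-numbered libraries of different stages deviated from their stage means with correlations from -0.31 to 0.51, so the numbers were not taken to pair ewes. Under the block, SLC18A2 joined TH below an unadjusted p of 0.05 between puberty and postpuberty (0.0299 for SLC18A2 and 0.0186 for TH).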
